A study of Saccharomyces cerevisiae with 6 samples.

Results

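The mating fusion and pheromone-induced genes of the budding yeast Saccharomyces cerevisiae described here are 10 named genes: AGA1, FIG1, FIG2, FUS1, FUS2, KAR4, PRM1, PRM2, PRM6 and PRM7. They were taken as output genes of the transcription factor Ste12 that act in adhesion, cell fusion and nuclear fusion, and found by symbol in the annotation of an Affymetrix array. All 10 were measured, among 5449 S. cerevisiae genes in all, and none was lost to a filter on low values, since no such filter was applied. They were listed with their difference between the strains already known, so that difference is given as a description and no p-value is printed for any of the 10 genes.

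The data are 6 arrays. The wild-type group held 3 arrays of strain FY4, and the other group held 3 arrays of a mutant with GCN4 deleted, for which the labels name neither parent strain, mating type nor the ends of the deletion. GCN4 encodes a transcription factor that turns on genes for making amino acids. Both strains grew in batch in minimal medium with glucose and were harvested in exponential growth at the same cell density, and no pheromone is named among the treatments. The labels do not say whether the 3 arrays of a group came from separate cultures, so every spread and p-value below covers only these arrays.

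A haploid yeast cell senses the pheromone of the opposite mating type through a receptor coupled to a G protein, and a kinase cascade ending in Fus3 and Kss1 frees Ste12 from its inhibitors Dig1 and Dig2. Ste12 then turns on genes for cell cycle arrest, for sticking to a partner, for removing the wall between the cells, for merging their membranes and for joining their nuclei. In cells that have met no partner most of these genes are kept at a low level, which is why they are used as reporters of the pathway.

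The deposited values are normalised intensities on a linear scale, and differences are given on the log2 scale as deletion minus wild-type. Background was taken on each array as the 95th percentile of the probe sets for genes of another yeast, and lay between 6.08 and 6.61 on the log2 scale. Where 1 or more arrays of a group did not show a gene above it, those arrays were set to the background level and the fold is a bound, written as "at least". The wild-type arrays had a median gene intensity of 2112 to 2206 and the deletion arrays of 2281 to 2341. Across genes, the correlation of 2 arrays was 0.988 to 0.995 within a group and 0.952 to 0.963 between groups. GCN4 itself had intensities of 23339, 18826 and 20141 in the wild-type and 18.5, 22.3 and 18.1 in the deletion, where it was at background on all 3 arrays, at least 283-fold lower.

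All 10 genes were higher in the deletion, from 2.28-fold for KAR4 to at least 17.8-fold for PRM6 and at least 20.1-fold for FIG1, with a median log2 difference of 2.13 against 0.09 over all 5449 genes. By limma at an adjusted p under 0.05, 10 of 10 were called higher, where 24.6% of all genes were. Of the 10, 10 were called and at least 2-fold higher, where 3.60% of all genes were, and in 10 the deletion arrays all lay above the wild-type arrays, where 34.9% of all genes showed this. Since the list was chosen on this comparison, nothing is read from these counts. Ranked by log2 difference from the highest, 3 of the genes lay within the first 10 of all genes and 8 within the first 100, and KAR4, the lowest of them, had rank 147. The plot of levels by array shows each of the 60 values.

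**Figure D1:**
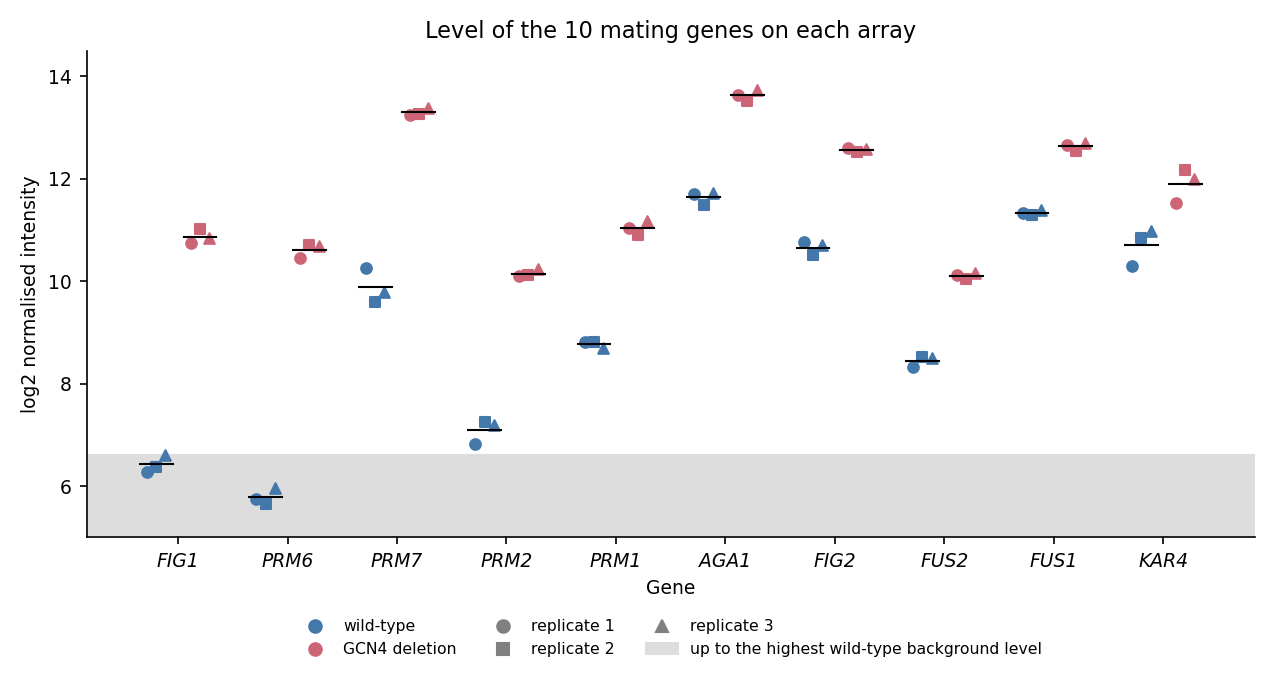
Log2 normalised intensity (vertical axis) of each of the 10 genes on 3 wild-type arrays (blue) and 3 GCN4 deletion arrays (red), with a horizontal line at each group mean and a marker shape for each replicate number. Grey reaches to 6.61, the highest background level of a wild-type array; PRM6 lies inside it on all 3 wild-type arrays, and every deletion value of the 10 genes lies above it.

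The adhesion genes were already well above background in the wild-type. AGA1 (YNR044W) encodes the anchor subunit of a-agglutinin, which holds the adhesion subunit Aga2 to the wall of a cells. Its intensities were 3340.1, 2889 and 3367 in the wild-type and 12687, 11797 and 13561 in the deletion, a log2 difference of 1.99 (SE 0.08), or 3.97-fold. The lowest deletion array lay 1.81 above the highest wild-type array on the log2 scale. FIG2 (YCR089W), which encodes a wall adhesin made during mating, had intensities of 1739, 1454 and 1664 in the wild-type and 6179, 5866 and 6168 in the deletion. Its log2 difference was 1.91 (SE 0.08), or 3.76-fold. Wild-type replicate 2 and deletion replicate 2 were the lowest arrays of their groups for both genes.

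Genes of ion entry were the nearest to background in the wild-type. FIG1 (YBR040W) encodes a membrane protein needed for calcium entry during mating. It had intensities of 77.2, 83.3 and 97.9 in the wild-type, above background on 2 of 3 arrays, and 1713, 2063 and 1843 in the deletion. With wild-type replicate 1 set to background, it was at least 20.1-fold higher in the deletion. PRM6 (YML047C), for which the gene table gives the alias KCH2, encodes a membrane protein involved in potassium entry. Its wild-type intensities of 53.7, 50.3 and 61.9 were at background on all 3 arrays, and its deletion intensities were 1407, 1661 and 1638, at least 17.8-fold higher. On the deletion arrays both genes lay far above background. Taken without the bound, the log2 difference was 4.83 (SE 0.10) for PRM6 and 4.45 (SE 0.11) for FIG1, whereas the bounded value was the higher one for FIG1, so the order of the pair is not settled.

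Of the genes of cell fusion, FUS1 had the smallest difference and PRM1 the largest. FUS1 (YCL027W) encodes a membrane protein of the mating projection needed for cell fusion, and is a common reporter of the pathway. Its intensities were 2572, 2501 and 2668 in the wild-type and 6504, 5995 and 6653 in the deletion. The log2 difference was 1.31 (SE 0.06), or 2.47-fold, and the standard deviation was 0.05 over the wild-type arrays and 0.08 over the deletion arrays (n = 3 each). FUS2 (YMR232W), whose product acts in removing the wall between partners, had intensities of 319.8, 366 and 360.0 in the wild-type and 1108, 1050.2 and 1144 in the deletion. The log2 difference of FUS2 was 1.66 (SE 0.07), or 3.16-fold. PRM1 (YNL279W) encodes a membrane protein that acts when the plasma membranes merge. Its intensities were 450.0, 451 and 412 in the wild-type and 2103, 1919.9 and 2297 in the deletion, a log2 difference of 2.26 (SE 0.08), or 4.81-fold. The groups of none of these 3 genes overlapped. Of all genes, 34.9% had every deletion array above the wild-type arrays, so nothing is read from this.

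KAR4 (YCL055W) encodes a transcription factor that acts with Ste12 on karyogamy genes, among them KAR3 and CIK1. Its intensities were 1262, 1833 and 2015 in the wild-type and 2932, 4606 and 4102 in the deletion. The log2 difference was 1.19 (SE 0.23), or 2.28-fold, with a 95% interval of 0.63 to 1.75. In a fit that takes out what same-numbered arrays share, the difference was the same and the SE was 0.07. Its spread was the widest of the 10 genes in each group, with standard deviations of 0.36 and 0.34 on the log2 scale, where the median gene had 0.08 in each group. Replicate 1 was the low array in both groups, and the differences between arrays of the same number were 1.22, 1.33 and 1.03. The lowest deletion array lay 0.54 above the highest wild-type array, the smallest gap of the 10 genes.

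Of the remaining pair of pheromone-regulated membrane protein genes, PRM2 (YIL037C) had intensities of 113, 153 and 146 in the wild-type and 1092, 1112 and 1199.8 in the deletion. Its log2 difference was 3.05 (SE 0.12), or 8.31-fold. All 6 values lay above the 95th percentile of the other-yeast probe sets, but the 3 wild-type values lay below the 99th percentile, against which the difference was at least 6.51-fold. PRM7 (YDL039C) had intensities of 1232, 768 and 879 in the wild-type and 9729, 9909.6 and 10687 in the deletion, a log2 difference of 3.43 (SE 0.17), or 10.7-fold. The plot of differences sets the 10 genes beside all others.

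**Figure D2:**
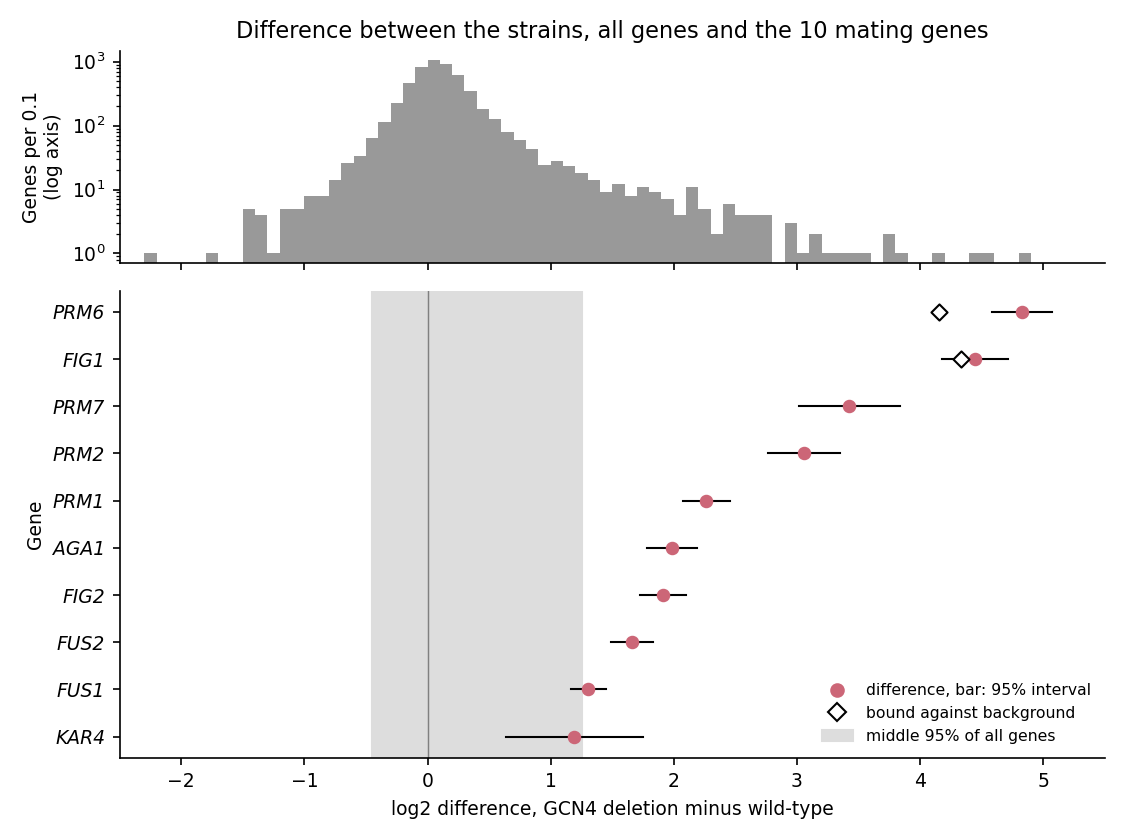
Upper panel, number of genes (log axis) per 0.1 of log2 difference, deletion minus wild-type, with the few lowest genes, such as GCN4, off the axis. Lower panel, the difference of each of the 10 genes with its 95% interval from limma, a diamond for the bound against background of PRM6 and FIG1, and in grey the middle 95% of all genes, from -0.45 to 1.25, in which KAR4 alone has its central value.

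PRM7 was measured on 2 probe sets, and its neighbour BSC1 (YDL037C) is next to it in the gene table, which lists YDL038C as an alias of PRM7. The second PRM7 probe set had intensities of 683, 395 and 419 in the wild-type and 7764, 7916 and 8027 in the deletion, or 16.3-fold higher against 10.7-fold on the first. BSC1 had 318, 139 and 176 in the wild-type and 3318, 3544 and 3523 in the deletion, and rose 17.5-fold (adjusted p = 0.00017). On all 3 probe sets wild-type replicate 1 was the high array of its group, by 0.39, 0.50 and 0.68 above the group mean on the log2 scale, and the deletion arrays lay within 0.05 to 0.14 of each other. Among the other 19 nearest measured neighbours of the 10 genes, 4 rose, 2 fell and 13 did not pass the test, each by less than 2-fold. The median log2 difference over all 20 neighbours was 0.00. PRP39, next to PRM6, rose 1.53-fold (adjusted p = 0.00298) and PEX34, next to KAR4, 1.48-fold (adjusted p = 0.0112).

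Within a group the 10 genes did not share one order of the arrays. In the deletion, replicate 3 was the highest array for 6 genes and the lowest for 0, and replicates 1 and 2 were each the lowest for 5. In the wild-type, replicate 2 was the lowest for 5 genes, replicate 1 for 4 and replicate 3 for 1. The order of replicate numbers was the same in both groups for 3 genes. Apart from KAR4, PRM7 and PRM2, whose wild-type standard deviations were 0.36, 0.35 and 0.24, the standard deviation of a group was at most 0.18 on the log2 scale.

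**Figure D3:**
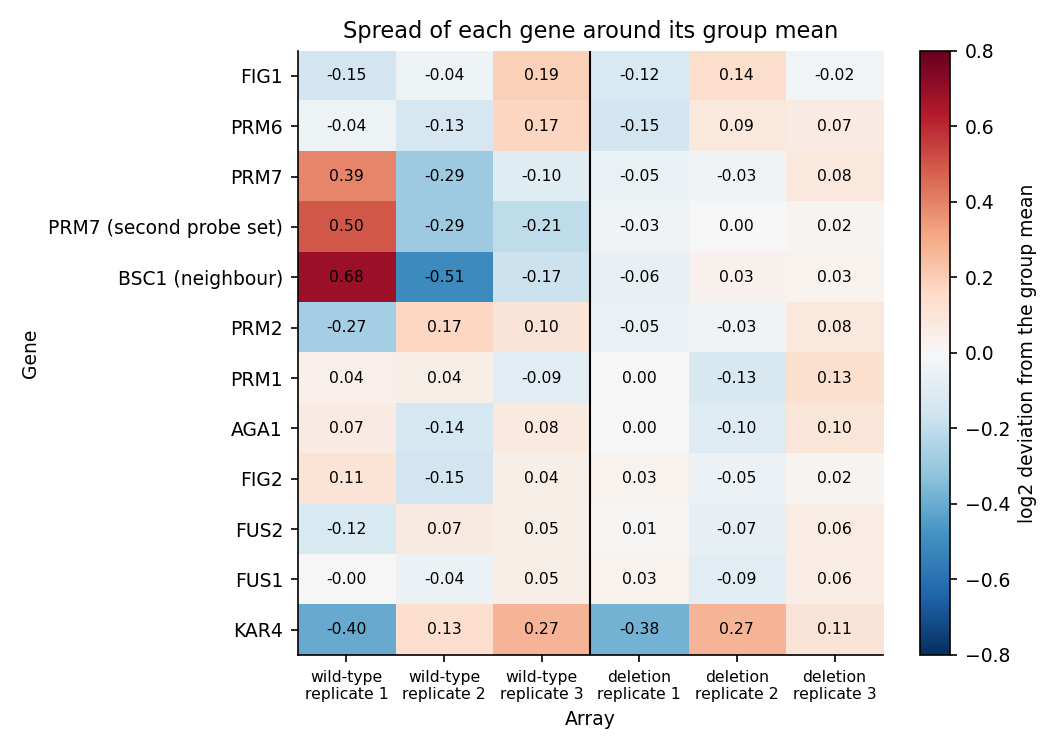
Deviation of each array from the mean of its group on the log2 scale, by gene (rows) and array (columns), with the second PRM7 probe set and the neighbour BSC1 added. KAR4 is low on replicate 1 of both groups (-0.40 and -0.38), and the PRM7 and BSC1 rows share a high wild-type replicate 1.

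Other genes of mating were counted in 6 lists with 96 distinct measured genes, none of them among the 10. Of these 96 genes, 37 rose, 7 fell and 52 did not pass the test, where 24.6% of all genes rose and 7.67% fell. The lists of signalling and of other pheromone-regulated genes held the larger shares of genes that rose, as in the plot of calls by list. The polarity list held the smallest share, 2 of 17 genes. In the nuclear fusion list 4 of 16 rose, close to the share of all genes. These counts are a description, and the difference between lists was not tested. In a second fit the replicate number entered as a block, a term that takes out what same-numbered arrays share, and 35.3% of all genes then rose and 12.2% fell.

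**Figure D4:**
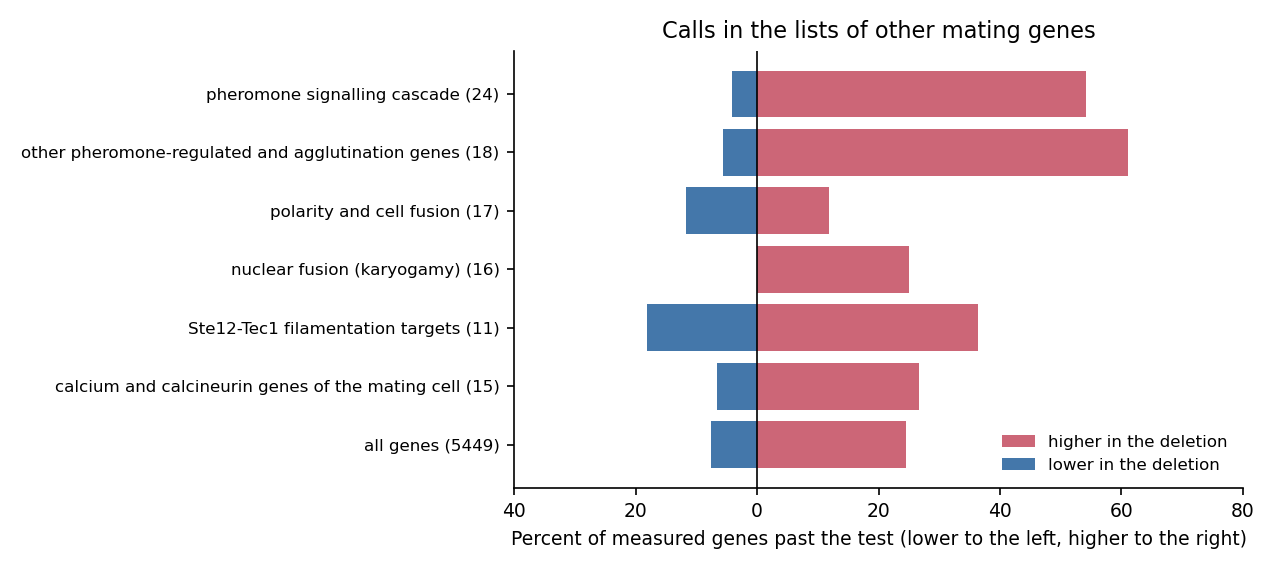
Percent of the measured genes of each list (number in parentheses) that passed limma's test at an adjusted p under 0.05, with genes higher in the deletion to the right and lower to the left, and all 5449 genes in the last row. In the signalling cascade 13 of 24 genes rose, and among polarity and cell fusion genes 2 of 17.

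In the signalling cascade 13 of 24 genes rose and 1 fell, with a median log2 difference of 0.21, and with the block 16 rose and 1 fell. With arrays brought to a common median, called centring here, 6 rose and 1 fell, and 14.3% of all genes then rose (778 higher and 703 lower, against 1338 and 418 without centring). FAR1, which arrests the cell cycle, had intensities of 3745, 3688 and 3641 in the wild-type and 5909, 5798 and 6918 in the deletion, and rose 1.68-fold (adjusted p = 0.000829). SST2, a negative regulator of the G protein, rose 1.66-fold (adjusted p = 0.000541), and the kinase gene FUS3 rose 1.65-fold (adjusted p = 0.000167). In each the deletion arrays all lay above the wild-type arrays, as in 34.9% of all genes. The phosphatase gene PTP2 rose 1.47-fold. STE12 had 3359.7, 3000.3 and 3447 in the wild-type and 4267, 4136 and 4953 in the deletion, and rose 1.36-fold (adjusted p = 0.0121), which no longer passed after centring (adjusted p = 0.0523). KSS1 and DIG2 did not pass, with a log2 difference of 0.05 each.

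Of 18 other pheromone-regulated and agglutination genes 11 rose and 1 fell, with a median log2 difference of 0.68, and with the block 16 rose and 1 fell. ASG7, an a-specific gene that dampens signalling, had intensities of 821, 881 and 648 in the wild-type and 3816, 3561 and 3062 in the deletion, and rose 4.46-fold (adjusted p = 0.000115). AFR1, which acts in shaping the mating projection, rose 2.64-fold from 811, 994 and 864 to 2292, 2302 and 2427 (adjusted p = 9.01e-05). Of the other numbered PRM genes, PRM4, PRM10, PRM8 and PRM5 rose 2.24-fold, 2.19-fold, 1.90-fold and 1.63-fold, whereas PRM9 fell 1.25-fold and PRM3 did not pass (log2 difference -0.08, adjusted p = 0.808). The call of PRM9 was lost without wild-type replicate 1 and when every probe set but the controls entered the fit (adjusted p of at most 0.0571 over 16 alternatives).

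AGA2, which encodes the adhesion subunit that Aga1 anchors, did not pass the test. Its intensities were 4385, 3754 and 2011 in the wild-type and 7231, 5669 and 4167 in the deletion, so that the groups overlapped by 1 array, with a log2 difference of 0.79 (adjusted p = 0.122). Replicate 3 was the low array in both groups, and the differences between arrays of the same number were 0.72, 0.59 and 1.05. In the blocked fit AGA2 passed (adjusted p = 0.00251). The pheromone genes MFA1 and MFA2 had the same order of arrays, with replicate 3 low in both groups, and log2 differences of 0.84 and 0.44. Without the block MFA1 and MFA2 did not pass (adjusted p = 0.0619 and 0.306), but they did with it (adjusted p = 0.000821 and 0.0376). The same held for STE6, the exporter of the a pheromone, with an adjusted p of 0.0978 without the block and 0.0181 with it. FIG4, a phosphatase gene, was the other gene of this list that missed in the reported fit and passed with the block (adjusted p = 0.241 and 0.0292). MFA1 also passed in a fit that weights the arrays.

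**Figure D5:**
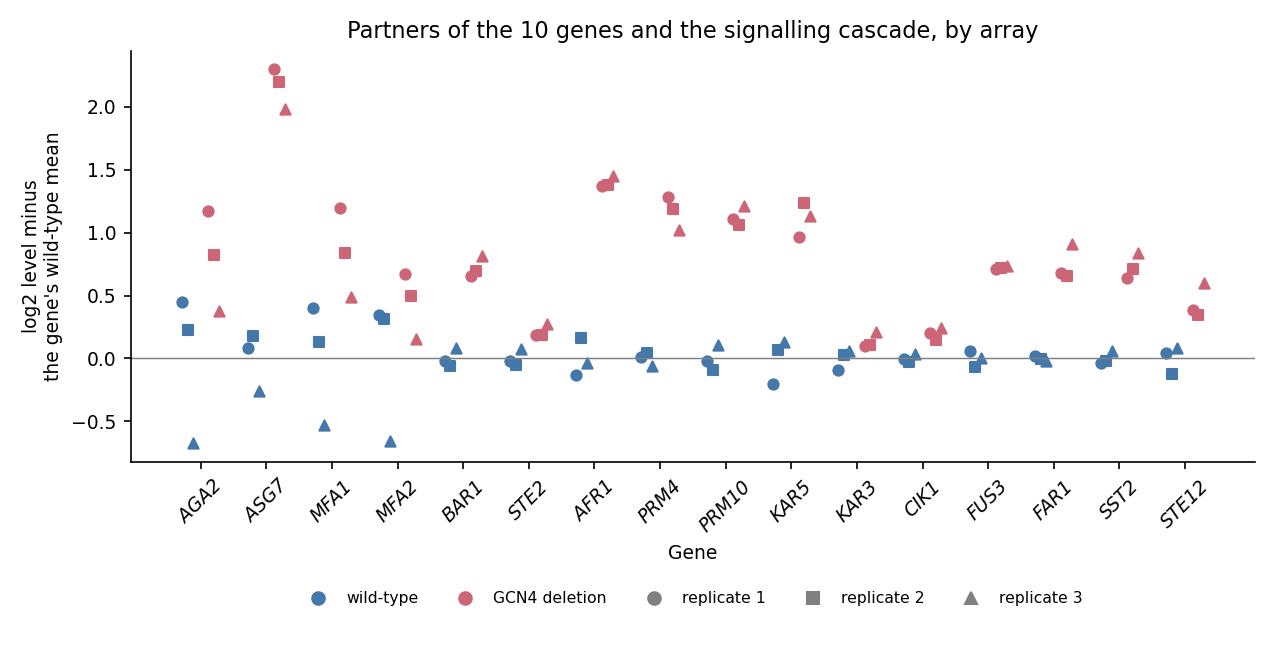
Log2 level on each array minus the gene's wild-type mean for 16 genes outside the 10, with wild-type in blue, deletion in red and a marker shape for each replicate number. AGA2, MFA1 and MFA2 are low on replicate 3 of both groups, and ASG7 stands highest, at a log2 difference of 2.16.

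Of 17 polarity and cell fusion genes 2 rose, 2 fell and 13 did not pass, with a median log2 difference of 0.00, and in the blocked fit 6 rose and 4 fell. FUS3 and the chitin synthase gene CHS3 rose, CHS3 by 1.23-fold, a call that ended after centring (adjusted p = 0.0772). SLG1, a sensor of wall stress, fell 1.30-fold and BUD6, an actin regulator, 1.21-fold, the latter not on removal of deletion replicate 1 or 2 (adjusted p between 0.051 and 0.0517). SPA2, a scaffold of polarised growth, and FPS1, a glycerol channel gene, had log2 differences of 0.00 and -0.01. RVS161, whose product binds Fus2, did not pass either (log2 difference 0.13, adjusted p = 0.382), but did so in the blocked fit (adjusted p = 0.0401).

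Among 16 nuclear fusion genes 4 rose and 0 fell by limma, with a median log2 difference of 0.07, and with the block 5 rose and 2 fell. At an unadjusted p under 0.05 the counts were 5 higher and 0 lower, where 32% of all genes were higher and 10.9% lower by that rule. KAR5, which acts at the nuclear envelope when nuclei fuse, had intensities of 1438, 1730.0 and 1809 in the wild-type and 3229.8, 3894 and 3624 in the deletion, and rose 2.16-fold (adjusted p = 0.000704). Like KAR4, it was lowest on replicate 1 of both groups. BIK1, BIM1 and CIK1, which act on microtubules, rose by 1.14-fold to 1.20-fold, and each of these 3 calls ended after centring (adjusted p of 0.12 to 0.332), which left KAR5 as the 1 gene called higher. The call of BIM1 also ended on removal of any single array other than wild-type replicate 3 (adjusted p between 0.0612 and 0.138), and that of CIK1 without wild-type replicate 1 or 2 or deletion replicate 1 or 3 (adjusted p of 0.0631 to 0.0827), so that 2 genes were called higher without any one of those 4 arrays. KAR3, the motor that pairs with Cik1, did not pass (log2 difference 0.14, adjusted p = 0.141). The karyogamy gene KAR1 and the kinesin gene KIP3 did not pass either, at -0.01 and 0.05.

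Of 11 genes that Ste12 with Tec1 or related regulators control in filamentous growth, 4 rose and 2 fell, with a median log2 difference of 0.12. In the blocked fit 5 rose and 3 fell. HMS1, at background on all 3 wild-type arrays, was at least 2.29-fold higher (adjusted p = 8.96e-05). TEC1 rose 1.64-fold, SVS1 1.36-fold and the flocculin gene FLO11 1.36-fold, whereas PHD1, a transcription factor of pseudohyphal growth, fell 1.90-fold from 4832, 5059 and 4786 to 2636, 2318 and 2791 (adjusted p = 0.000361). PGU1, a pectinase gene much used as a reporter of this branch, did not pass (log2 difference 0.09, adjusted p = 0.384). Of 15 calcium and calcineurin genes 4 rose and 1 fell, with a median log2 difference of 0.13, and with the block 6 rose and 2 fell. The calmodulin kinase gene CMK2 rose 1.44-fold (adjusted p = 0.00386) and MID1, a subunit of the other calcium entry system of mating cells, fell 1.20-fold (adjusted p = 0.0115). ECM7, CMP2 and CNA1 rose by 1.19-fold to 1.30-fold, and these 3 calls ended after centring, with 1 of the list then higher and 3 lower. The call of ECM7 also ended without wild-type replicate 1 or deletion replicate 2 or 3 (adjusted p of 0.0537 to 0.0591).

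Markers of mating type were read beside these results. STE2, the receptor of a cells, had intensities of 16341 to 17799 in the wild-type and 19220.1 to 20454 in the deletion, and STE3, the receptor of alpha cells, had 181 to 196 and 155 to 159.9. STE3 was above background on all 6 arrays and fell 1.21-fold. Of 7 a-specific genes 3 rose and 0 fell by limma (5 and 0 at an unadjusted p under 0.05, and 7 rose with the block). The call of STE2, 1 of the 3, ended on removal of any single array other than wild-type replicate 3 (adjusted p between 0.0658 and 0.0954), which left 2. It also ended after centring (adjusted p = 0.292), again with 2 left, and with every probe set but the controls fitted. Of 4 alpha-specific genes SAG1 and MF(ALPHA)1 rose and MF(ALPHA)2 and STE3 fell. SAG1, which encodes alpha-agglutinin, rose 1.45-fold (adjusted p = 0.0036), MF(ALPHA)1 lay at background on the wild-type arrays, and its deletion level was at least 1.13-fold above that (a call that ended without deletion replicate 1 or 2), and MF(ALPHA)2 fell 1.48-fold. Haploid-specific genes are kept off in a/alpha diploids, and several, such as FAR1 and FUS3, are also in the signalling cascade. Of 11 measured, 7 rose and 2 fell, after centring 4 rose and 2 fell, and with the block 8 rose and 2 fell. The pair that fell were RME1, a repressor of entry into meiosis, by 1.60-fold (adjusted p = 0.00018) and HO, the mating-type switching endonuclease, by 1.18-fold (adjusted p = 0.0198). The call of HO ended without wild-type replicate 1 or 3 or deletion replicate 1 or 2 (adjusted p between 0.0557 and 0.0668), which left 1 lower. Of 8 genes of meiosis and sporulation 3 rose and 2 fell, and with the block 4 rose and 2 fell. SMK1 was 1 of the 2 that fell, by 1.27-fold (adjusted p = 0.00498). IME1, the activator of meiotic entry, fell 2.82-fold (adjusted p = 9.99e-05), whereas the chromosome axis gene HOP1, above background on 1 of 3 wild-type arrays, was at least 2.60-fold higher (adjusted p = 0.000216), the kinase gene IME2 rose 1.76-fold and the recombinase gene DMC1 1.71-fold. The part of mating type or ploidy in the differences of the 10 genes was not tested. In RNA from whole cultures a change in the share of cells that express a gene and a change in RNA per cell cannot be told apart.

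The genes with the profile most like the mean of the 10 were found by the distance between centred log2 levels over the 6 arrays. These arrays are grouped by strain and by replicate number. The nearest 6 of the other genes were IMA1, HPF1, HSP26, YHR213W, IMA5 and HXT5, at distances of 0.157 to 0.311. This distance takes in the size of the difference between the strains, on which the list was chosen. Without bounds, that log2 difference was 2.61 for the mean of the 10 and 2.41 to 2.60 for these 6. IMA1, an isomaltase gene with close relatives that its probes may share, had intensities of 272, 263 and 309.6 in the wild-type and 1668, 1792 and 1664 in the deletion. HPF1, which encodes a wall mannoprotein, had 3019, 2768 and 3429 in the wild-type and 17642, 17523 and 18298 in the deletion. The small heat shock protein gene HSP26 was 5.71-fold higher, the isomaltase gene IMA5 5.46-fold and the hexose transporter gene HXT5 5.31-fold. YHR213W, at background on all 3 wild-type arrays, was at least 2.97-fold higher. Of the 10 genes themselves the nearest to their own mean was PRM1, at 0.492, and 66 other genes lay nearer to it than the median of the 10.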

How the data were processed

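Expression of 3 wild-type and 3 deletion samples was measured on Affymetrix arrays, with biotin-labelled RNA made from total RNA through cDNA, per the labels' protocols. R 2.8.0, affy and RMA appear in the submitters' processing notes without a stated role. The authors deposited normalised intensity values on a linear scale, from 9.03 to 35044. The set of arrays normalised together is not stated in those sources.

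Probe sets were named through the platform annotation and the R64 gene table, which was used only for names and neighbours. For genes with several probe sets the one with the highest mean over the 6 arrays was used, which left 5449 genes. The probe sets of the 10 genes are not of the kinds marked as shared between genes. Log2 intensities, without a pseudocount, went into limma 3.58.1 under R 4.3.3 (lmFit, eBayes, two-sided, Benjamini-Hochberg adjustment over all genes, threshold 0.05). On data simulated for this comparison with 5449 genes, limma called 73.1% of 67 genes shifted by 0.5 in log2, 95.5% of 67 shifted by 1 and 98.5% of 66 shifted by 2, and 10 of its 188 calls were false. In the simulated data the noise was independent between arrays, few genes were changed and their direction was random. In the measured data 1338 genes were called higher and 418 lower, and same-numbered arrays deviated together. The simulated rates therefore need not hold for the measured data. The number of arrays limits the precision. Figures were drawn with matplotlib 3.10.9.

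Sample titles gave the groups and replicate numbers. Over all genes, same-numbered arrays of both strains deviated from their group means together (r of 0.69, 0.53 and 0.71), above a limit of 0.1. The fit reported leaves the replicate number out. A fit with that number as a block is given beside the counts of each list whose calls it changes. The limit was also passed by 1 pair whose numbers differ (wild-type 2 with deletion 1, r of 0.23). The 10 genes and the lists of other mating genes were chosen with earlier results of these data known. The genes named were the 10 genes, GCN4, in each list up to 4 called with the largest and up to 2 not called with the smallest differences, a-specific and alpha-specific markers, the 6 genes most alike, and neighbours changed at least 2-fold. PRM5, PRM8, PRM9, STE12, RVS161, KAR3, CNA1, FIG4, HO, SVS1, PRP39, PEX34 and the genes drawn beside them were named after their values were seen. Alternatives covered normalization, centring, an offset, dim genes, probe sets, array weights, a variance trend, the replicate block, the background level and leaving out each array. Promoter sequence was not used here, so the planned motif search was not run.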

Additional observations from a re-analysis of the deposited data

How the results depend on the processing

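All 10 genes stayed called higher in each of the 16 alternatives, including the replicate block and the leaving out of each array. Over all genes, 752 were called higher after quantile normalization, the fewest, and 1925 with the block, the most. Since the list was chosen on this comparison, nothing is read from the count of the 10. The median log2 difference of the 10 genes, 2.13 as deposited, was 1.99 after quantile normalization and 2.02 after centring, and 2.07 to 2.18 without one array. The choice of background moved the bounds most. PRM6 was 28.4-fold higher against the median of the other-yeast probe sets and at least 8.99-fold against their 99th percentile, and FIG1 21.8-fold and at least 10.7-fold. With log2(intensity + 50) the folds of PRM6, FIG1 and PRM2 were 15.3, 14.1 and 6.34. KAR4 ranged from 1.98-fold without wild-type replicate 1 to 2.60-fold without deletion replicate 1. In each of these fits the other replicate 1 array, which was low in its group, stayed in.

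The lists depended on scaling. Signalling genes called higher numbered 13, but 8 after quantile normalization, with 2 lower, and 6 after centring (9 to 13 without one array). Polarity genes had 2 higher, but 1 after centring, 4 with array weights and 6 with the replicate block, and 2 lower, but 4 after quantile normalization or with the block, and 1 with every probe set but the controls fitted (1 to 3 without one array). Nuclear fusion genes had 4 higher, but 1 after quantile normalization, cyclic loess or centring or with every probe set but the controls fitted (2 to 4 without one array), and 2 lower with the block. Calcium genes had 4 higher, but 1 after quantile normalization or centring or with every probe set but the controls, and 2 after cyclic loess. With the block 6 of them were higher. Calcium genes had 1 lower, but 3 after quantile normalization, cyclic loess or centring, 2 with array weights or the block, and 0 with every probe set but the controls. PRM9, the 1 lower gene of its list, was lost with every probe set but the controls (0 lower, and 0 to 1 without one array). The cause was not tested. By Pearson correlation over the 6 arrays, 2 of the 6 genes most alike were kept. The replicate block changed no call of the 10 genes. Over all genes, centring shifted the median log2 difference by -0.10, and 832 genes were called higher and 229 lower with every probe set but the controls fitted.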
